A study of Mus musculus with 26 samples.

Results

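The haematopoietic growth factor receptors are the cell surface proteins through which myeloid progenitors receive the signals to survive, divide and mature. They were taken here as 10 genes fixed by symbol (Csf1r, Csf2ra, Csf2rb, Csf2rb2, Csf3r, Il3ra, Il5ra, Kit, Flt3 and Epor), all of which were found among the 48795 genes of the count table. RNA was measured by sequencing in mouse myeloid progenitors of C57BL/6 background transformed by MN1, or by Hoxa9 and Meis1 together (H9M), as LSD1 knockout (KO) or control (CTL) cells, each with 1 µM all-trans retinoic acid (+ ATRA) or without it (W/O ATRA). Each of the 8 groups (MN1 KO + ATRA, MN1 KO W/O ATRA, MN1 CTL + ATRA, MN1 CTL W/O ATRA, and the same for H9M) has 3 libraries. All cells grew in DMEM with 15% FCS, 10 ng/ml mouse IL-3, 10 ng/ml human IL-6 and 100 ng/ml mouse SCF, so the ligands of Il3ra and of Kit were present in every group. Knockout was induced with 0.1 µM 4-hydroxytamoxifen for 72 h. The labels do not say whether the controls received it or how long ATRA was given, and the strain label, CreERT2-;LSD1TM1Schuele, is the same for knockouts and controls. H3K4me2 is a methylated histone that lies around gene starts in use or ready for use, and LSD1 can remove its methyl groups. ChIP-seq for it came from lineage-negative bone marrow cells of C57BL/6 mice, 1 library labelled GFI-KD (GFI1-KD here) and 1 labelled GFI1-WT. What KD stands for and how it was brought about is not stated in the labels.

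The receptors belong to a pair of structural classes. Type I cytokine receptors have no kinase of their own and signal through bound JAK kinases to STAT factors: Il3ra, Il5ra and Csf2ra are ligand-specific alpha chains that pair with the beta chain Csf2rb, Csf2rb2 is a second beta chain of the mouse that serves IL-3 alone, and Csf3r and Epor bind G-CSF and erythropoietin as homodimers. Csf1r, Kit and Flt3 are receptor tyrosine kinases, for M-CSF and IL-34, for SCF and for FLT3 ligand. LSD1 (gene Kdm1a) is a histone demethylase that the repressor GFI1 recruits to its targets, and the title of the series asks about GFI1-mediated repression of PU.1 targets. PU.1 is an ETS transcription factor known to act on the promoters of several of these receptor genes.

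The promoters of 8 of the 10 genes were matched in a RefSeq table of the GRCm38.p6 build, each covering 250 bases before to 50 after the annotated start. They were searched on both strands for 6 motifs. For the myeloid factor PU.1 the letters searched were GAGGAAG. For RUNX factors, which act in blood stem cells, they were TGTGGT. The C/EBP factors of the granulocyte line were searched as TTGCNNAA. The letters for GATA factors, which act in red cell and mast cell lines, were AGATAA. For the repressor GFI1 itself the core letters were AAATCA. Nuclear receptors, among which are those that bind ATRA, were searched by their core repeat unit AGGTCA. The PU.1 motif was present in 4 of these 8 windows and in 13.6% of all 32851 promoters of the same length. These 4 are shown because they hold the motif of PU.1, the factor named in the title of the series, with the motif in capitals (GAGGAAG as printed, or CTTCCTC where it lies on the other strand). They are Csf2ra (chr19:61228369-61228668, minus strand), Csf2rb2 (chr15:78305672-78305971, minus strand), Csf3r (chr4:126024409-126024708, plus strand) and Kit (chr5:75574737-75575036, plus strand).
Csf2ra: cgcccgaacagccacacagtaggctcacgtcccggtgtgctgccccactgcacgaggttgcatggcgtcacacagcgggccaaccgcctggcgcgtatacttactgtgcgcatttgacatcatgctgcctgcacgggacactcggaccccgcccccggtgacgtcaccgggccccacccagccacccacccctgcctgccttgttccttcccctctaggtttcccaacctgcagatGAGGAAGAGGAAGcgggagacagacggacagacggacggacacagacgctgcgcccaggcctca
Csf2rb2: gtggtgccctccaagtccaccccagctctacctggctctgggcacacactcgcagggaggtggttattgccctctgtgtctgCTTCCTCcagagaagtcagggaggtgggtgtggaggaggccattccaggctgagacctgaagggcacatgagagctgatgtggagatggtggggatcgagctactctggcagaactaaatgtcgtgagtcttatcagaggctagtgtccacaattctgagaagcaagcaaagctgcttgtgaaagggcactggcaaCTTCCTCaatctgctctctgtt
Csf3r: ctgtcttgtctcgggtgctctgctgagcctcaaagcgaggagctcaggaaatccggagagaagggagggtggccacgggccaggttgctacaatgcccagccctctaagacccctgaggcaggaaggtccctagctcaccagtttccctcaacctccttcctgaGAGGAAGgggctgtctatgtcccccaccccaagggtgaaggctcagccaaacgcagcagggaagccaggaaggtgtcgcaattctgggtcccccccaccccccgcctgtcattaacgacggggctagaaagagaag
Kit: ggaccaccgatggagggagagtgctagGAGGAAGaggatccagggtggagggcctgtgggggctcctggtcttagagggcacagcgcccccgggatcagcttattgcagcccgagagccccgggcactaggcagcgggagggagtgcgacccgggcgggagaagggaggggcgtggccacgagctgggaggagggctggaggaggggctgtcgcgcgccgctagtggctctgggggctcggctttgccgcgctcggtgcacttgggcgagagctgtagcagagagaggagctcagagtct
In Csf2ra, 2 matches that overlap by 1 base began 14 and 8 bases before the start. In Csf2rb2 they lay on the other strand, 168 bases before and 28 bases after the start. The single match began 86 bases before the start in Csf3r and 223 bases before it in Kit. The promoter table's starts of Csf3r, Il3ra and, by less, Csf2ra lie inside the gene spans given below. Motif distances and H3K4me2 counts for these genes refer to the starts of that table. The promoter of Epor (chr9:21963527-21963826, minus strand) is shown because its H3K4me2 stood apart from the others, with the capitals marking a RUNX motif 166 and a GATA motif 54 bases before the start, both on the other strand.
Epor: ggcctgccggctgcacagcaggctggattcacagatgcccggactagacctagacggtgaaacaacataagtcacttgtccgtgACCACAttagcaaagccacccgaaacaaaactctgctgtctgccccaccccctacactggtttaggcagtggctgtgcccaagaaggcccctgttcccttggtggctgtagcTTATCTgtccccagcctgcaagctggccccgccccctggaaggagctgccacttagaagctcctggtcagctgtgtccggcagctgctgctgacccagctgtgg
All promoters held the RUNX motif in 16.8% and the GATA motif in 11.2% of cases. The C/EBP motif was found in Il3ra, 134 bases before the start, against 10.8% of all promoters. The GATA motif was also found in Il5ra, 74 bases before the start. The GFI1 letters (14% of all promoters) and the nuclear receptor letters (16.3%) occurred in none of the 8 windows, and Flt3 held none of the 6 motifs. A match is a run of letters and not a shown binding site.

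The libraries had 22402558 to 32674685 counts, so that a count of 0 allows up to 0.0918 to 0.134 CPM in a library, counting error only (CPM are counts per 1000000 counts of the library). The 8 myeloid progenitor markers checked, from Ptprc, Mpo and Elane to Spi1 and Cebpa, were detected in every group, with summed levels of 3439 to 16413 CPM. Kdm1a had 2.22, 1.85 and 2.36 CPM in MN1 KO + ATRA and 1.41, 1.28 and 1.58 CPM in MN1 KO W/O ATRA libraries, against 187 to 203 CPM in the 6 MN1 CTL libraries. It had 11.5, 10.3 and 11.5 CPM in H9M KO + ATRA and 0.937, 0.998 and 0.952 CPM in H9M KO W/O ATRA libraries, against 138 to 150.2 CPM in the 6 H9M CTL libraries. The H9M KO + ATRA libraries thus kept more Kdm1a RNA than the other knockout libraries, and the part of this in their receptor levels was not tested. The library names of MN1 and of H9M end in different codes, whose meaning no label gives, so the model and whatever the codes stand for cannot be told apart. No label says that the 3 libraries of a group are separate cultures, so p-values measure the spread between these libraries. In bulk RNA, fewer cells of a type and less RNA per cell cannot be told apart.

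**Figure D1:**
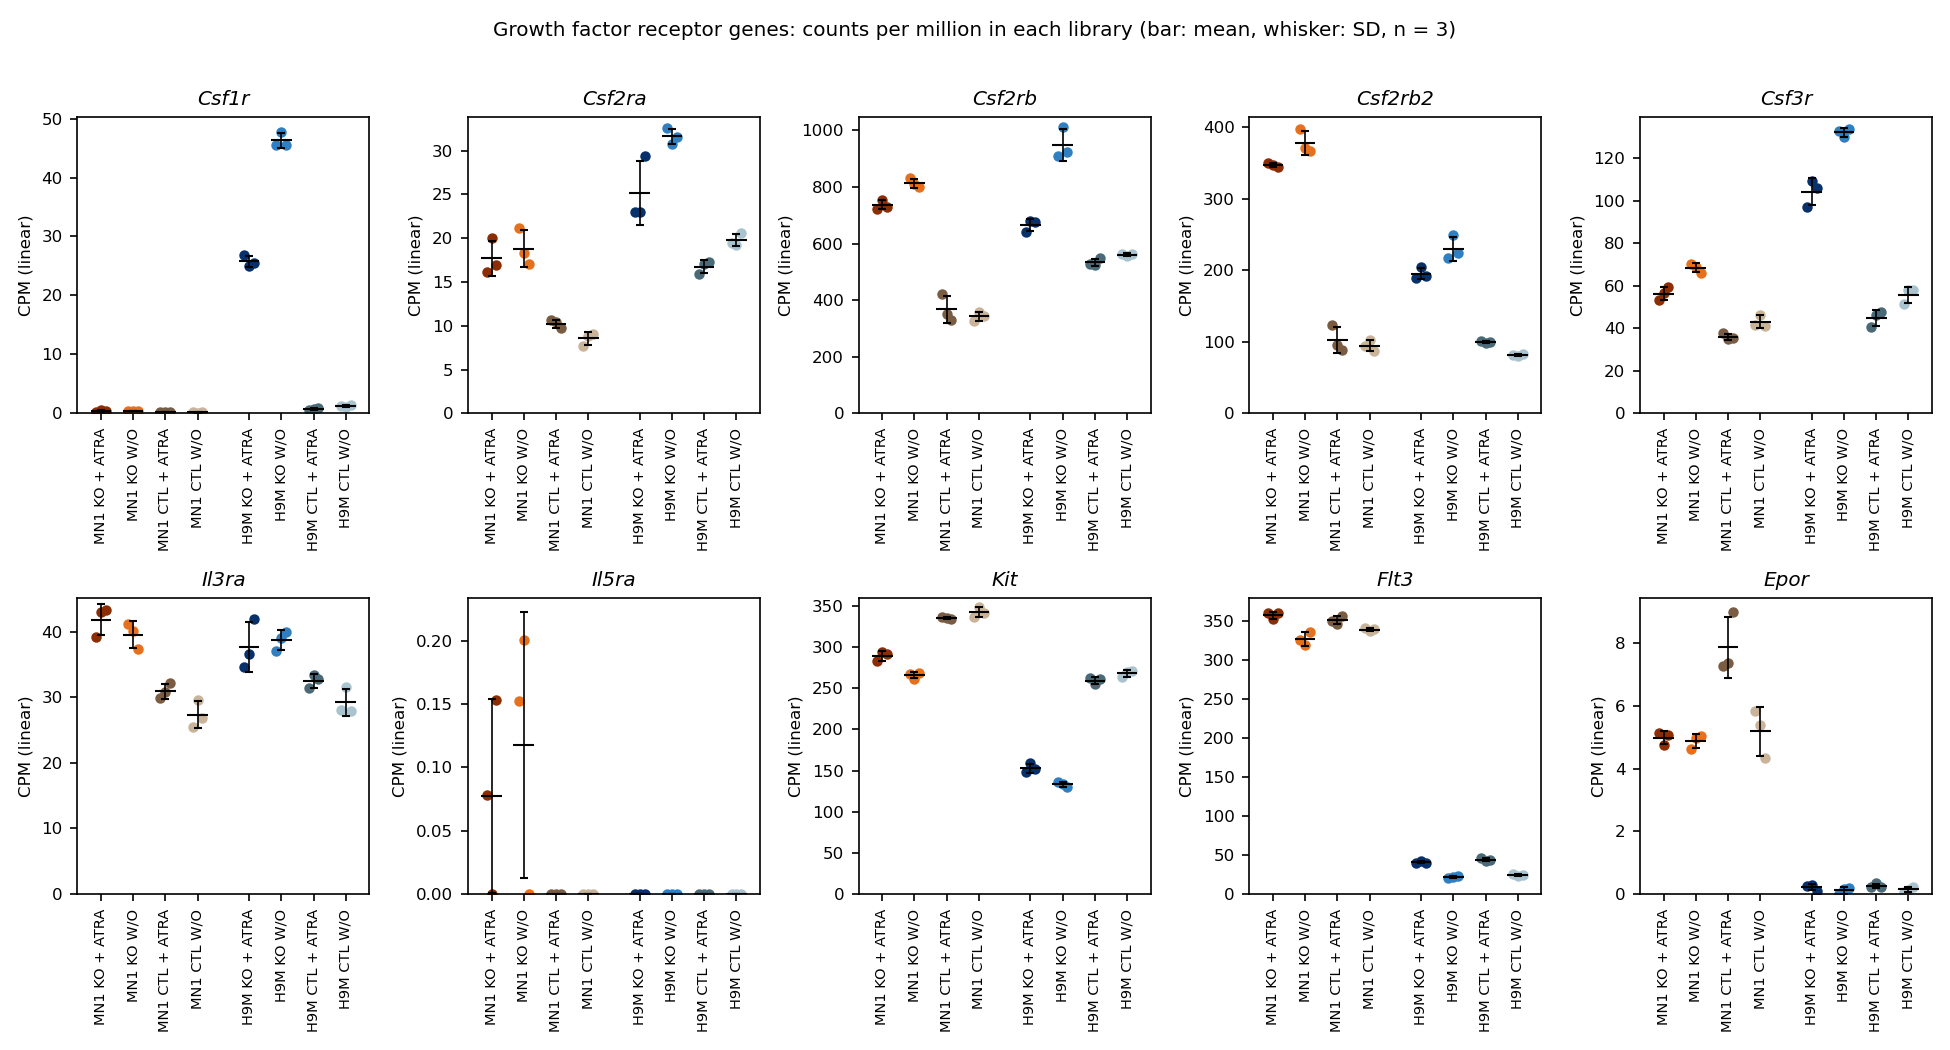
Levels of the 10 receptor genes in CPM (linear axes that start at 0), with 1 point per library, a bar at the mean and whiskers of 1 SD (n = 3) for 4 MN1 groups and 4 H9M groups. Csf1r is highest in the H9M KO groups (25.04 to 47.8 CPM), Flt3 and Epor are higher in the MN1 than in the H9M groups, and Il5ra has counts only in MN1 KO groups, at or below 0.2 CPM.

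LSD1 knockout moved most of the receptors in both models. Without ATRA, Csf1r, Csf2ra, Csf2rb, Csf2rb2, Csf3r and Il3ra rose in MN1 KO cells and in H9M KO cells, and Kit fell in both. Of the 10 genes, 9 were tested, since Il5ra was too low for the count filter. A gene is said to rise or fall where edgeR's quasi-likelihood test over all tested genes gave a Benjamini-Hochberg adjusted p under 0.05, and fold changes are given as log2 with their standard error (SE). In MN1, 6 of 9 rose, where 28.7% of all 14663 tested genes did, and 1 fell, where 26.3% did. In H9M, 6 of 9 rose against 26.1% of tested genes, and 2 fell against 25.4%. The median log2 fold change of the 9 genes was 0.67 in MN1 and 0.69 in H9M, beside 0.01 and 0.00 over all tested genes.

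With ATRA in both arms the picture was similar. In MN1, 5 of 9 rose (28.6% of tested genes did) and 2 fell (28.6%), with a median of 0.62. In H9M, 6 rose (26.7%) and 2 fell (24.4%), with a median of 0.32. The comparisons share libraries with those of the ATRA effect below and are not independent of them.

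Among the chains of the IL-3, GM-CSF and IL-5 receptors, the beta chain Csf2rb2 (ENSMUSG00000071714.5, chromosome 15, 78282507 to 78305721) changed most. It had 350.2, 346 and 344 CPM in MN1 KO + ATRA libraries, against 123, 95.5 and 87.9 CPM in MN1 CTL + ATRA libraries. Without ATRA it had 397, 370.1 and 366 CPM in MN1 KO, against 94.4, 102 and 87.6 CPM in MN1 CTL. Each MN1 KO library lay above each MN1 CTL library, with log2 fold changes of 1.74 (SE 0.07, adjusted p = 9.46e-19) with ATRA and 1.99 (SE 0.07, adjusted p = 4.33e-20) without it, the second being 3.98-fold. In H9M it had 189, 204 and 192 CPM in KO + ATRA, against 100.4, 98.1 and 99.8 CPM in CTL + ATRA. Without ATRA it had 217, 249 and 223 CPM in H9M KO, against 81.4, 79.8 and 82.8 CPM in H9M CTL. The groups did not overlap here either, and the log2 fold changes were 0.97 (SE 0.07, adjusted p = 1.66e-12) with ATRA and 1.51 (SE 0.07, adjusted p = 4.57e-17) without it.

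Csf2rb (ENSMUSG00000071713.4, chromosome 15, 78325800 to 78351001), the beta chain shared by the IL-3, GM-CSF and IL-5 receptors, is the neighbour of Csf2rb2, with 20078 bases between them. It had 724, 754 and 731 CPM in MN1 KO + ATRA, against 420.1, 351 and 330.1 CPM in MN1 CTL + ATRA. It had 831, 810.0 and 799 CPM in MN1 KO W/O ATRA, against 325, 359.6 and 342 CPM in MN1 CTL W/O ATRA. The log2 fold changes were 0.98 (SE 0.05, adjusted p = 9.61e-16) with ATRA and 1.24 (SE 0.05, adjusted p = 3.55e-18) without it. In H9M it had 639.6, 681 and 675 CPM in KO + ATRA, against 526, 525 and 548 CPM in CTL + ATRA. It had 908, 1011 and 924 CPM in H9M KO W/O ATRA, against 562, 556 and 565 CPM in H9M CTL W/O ATRA. Knockout libraries were above control libraries in each of these 4 pairs of groups, and in H9M the log2 fold changes were 0.32 (SE 0.05, adjusted p = 9.06e-06) with ATRA and 0.77 (SE 0.05, adjusted p = 2.59e-13) without it.

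The paralogous beta chains changed by unequal amounts. Csf2rb2 counts were 47.1 ± 1.24% of Csf2rb counts in MN1 KO + ATRA and 46.5 ± 1.21% in MN1 KO W/O ATRA, against 27.7 ± 1.44% in MN1 CTL + ATRA and 27.7 ± 1.83% in MN1 CTL W/O ATRA (SD, n = 3 each). In H9M they were 29.4 ± 0.764% in KO + ATRA and 24.2 ± 0.39% in KO W/O ATRA, against 18.7 ± 0.435% in CTL + ATRA and 14.5 ± 0.159% in CTL W/O ATRA. The ratio was higher in every KO library than in any CTL library of its model, and in H9M it was also higher in every + ATRA library than in any W/O ATRA library of the same LSD1 state. This is a ratio of the counts of separate genes and is not scaled to transcript length. The genes are near-identical copies over much of their length, so how the counting split reads between them makes both values uncertain.

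**Figure D2:**
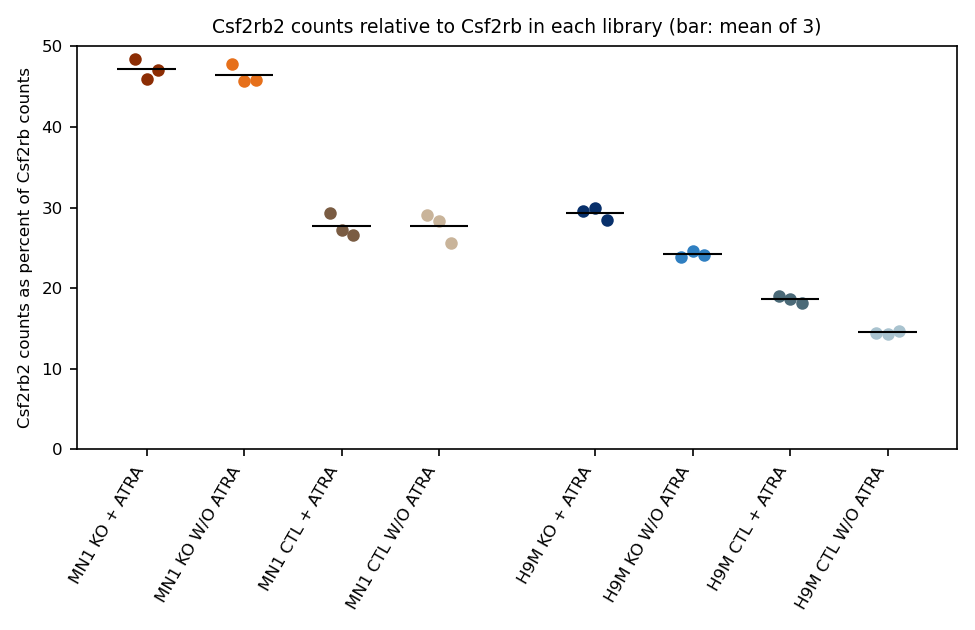
Csf2rb2 counts as a percent of Csf2rb counts (linear axis from 0), with 1 point per library and a bar at the mean of 3, for 4 MN1 and 4 H9M groups. The KO points lie at 45.7 to 48.4% in MN1 and at 23.9 to 30.0% in H9M, above the CTL points of the same model at 25.6 to 29.4% and 14.4 to 19.1%.

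Csf2ra (ENSMUSG00000059326.6, chromosome 19, 61217191 to 61228461), the GM-CSF alpha chain, rose in all 4 knockout comparisons. It had 16.2 to 19.997 CPM in MN1 KO + ATRA against 9.74 to 10.6 CPM in MN1 CTL + ATRA, and 17.0 to 21.1 CPM in MN1 KO W/O ATRA against 7.70 to 9.07 CPM in MN1 CTL W/O ATRA. It had 23.0 to 29.4 CPM in H9M KO + ATRA against 15.9 to 17.3 CPM in H9M CTL + ATRA, and 30.8 to 32.5 CPM in H9M KO W/O ATRA against 19.3 to 20.6 CPM in H9M CTL W/O ATRA. The log2 fold changes were 0.76 (adjusted p = 5.22e-08) and 1.13 (adjusted p = 3.49e-11) in MN1 with and without ATRA, and 0.59 (adjusted p = 1.35e-06) and 0.69 (adjusted p = 3.43e-08) in H9M.

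Il3ra (ENSMUSG00000068758.7, chromosome 14, 14345912 to 14355493), the IL-3 alpha chain, varied least, between 25.5 and 43.3 CPM over all 24 libraries. It rose by 0.42 on the log2 scale in MN1 KO with ATRA (adjusted p = 1.98e-06), by 0.53 without it (adjusted p = 5.19e-08), and by 0.42 in H9M KO W/O ATRA (adjusted p = 3.46e-06). In H9M with ATRA it rose by 0.22 (adjusted p = 0.00618), a call that ended without H9M KO + ATRA replicate 3 (0.13, adjusted p = 0.111).

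Il5ra (ENSMUSG00000005364.11, chromosome 6, 106710375 to 106749037), the IL-5 alpha chain of eosinophils, had 2, 0 and 5 counts in MN1 KO + ATRA and 4, 5 and 0 counts in MN1 KO W/O ATRA. All MN1 CTL and all H9M libraries had no count. A count of 0 allows up to 0.0349 CPM over MN1 CTL + ATRA and 0.0341 CPM over MN1 CTL W/O ATRA, counting error only, against 0.077 and 0.118 CPM on average in the MN1 KO groups with and without ATRA. The 4 eosinophil markers Epx, Prg2, Ccr3 and Siglecf summed to 4.47 to 8.08 CPM in MN1 KO libraries, against 0.786 to 1.21 CPM in MN1 CTL libraries, with Epx at 0 in MN1 CTL + ATRA and Ccr3 at 0 in MN1 CTL W/O ATRA. Their part in the Il5ra counts was not tested.

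Csf3r (ENSMUSG00000028859.14, chromosome 4, 126023441 to 126044975), the G-CSF receptor of the neutrophil line, rose more in H9M than in MN1. It had 97.2, 109 and 106 CPM in H9M KO + ATRA, against 40.7, 46.3 and 47.6 CPM in H9M CTL + ATRA. It had 133, 129.8 and 134 CPM in H9M KO W/O ATRA, against 51.3, 58.0 and 57.8 CPM in H9M CTL W/O ATRA. Each KO library was above each CTL library, by a log2 fold change of 1.22 (SE 0.06, adjusted p = 3.84e-17) with ATRA and 1.26 (SE 0.06, adjusted p = 6.32e-18) without it. In MN1 it had 53.0, 56.3 and 59.3 CPM in KO + ATRA, against 37.6, 35.0 and 35.5 CPM in CTL + ATRA. It had 70.1, 69.0 and 66.0 CPM in MN1 KO W/O ATRA, against 41.5, 46.4 and 40.9 CPM in MN1 CTL W/O ATRA. The groups did not overlap, with log2 fold changes of 0.62 (SE 0.06, adjusted p = 4.94e-10) and 0.67 (SE 0.06, adjusted p = 7.28e-11).

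Epor (ENSMUSG00000006235.5, chromosome 9, 21958897 to 21963576), the erythropoietin receptor, was low in H9M, with 0 to 8 counts per library. In MN1 it had 5.14, 4.74 and 5.08 CPM in KO + ATRA, against 7.26, 7.35 and 8.98 CPM in CTL + ATRA. It had 4.61, 4.97 and 5.05 CPM in MN1 KO W/O ATRA, against 5.85, 5.39 and 4.32 CPM in MN1 CTL W/O ATRA. The MN1 CTL + ATRA libraries were the highest, and Epor fell in MN1 KO against CTL with ATRA (log2 fold change -0.67, SE 0.13, adjusted p = 6.39e-05). Without ATRA the libraries overlapped, and the change did not pass (-0.09, 95% interval -0.38 to 0.20, adjusted p = 0.624). In H9M neither comparison passed, with intervals of -1.35 to 0.77 with ATRA and -1.65 to 1.04 without it. In MN1, 5 erythroid markers, among them Klf1 and Hbb-bs, summed to 14.7 to 17.8 CPM in KO + ATRA and 12.3 to 13.6 CPM in KO W/O ATRA, against 11.9 to 14.6 CPM in CTL + ATRA and 8.30 to 9.47 CPM in CTL W/O ATRA. In H9M they summed to 1.14 to 2.62 CPM, with Hbb-bs at 0 in all 4 groups. Their part in the Epor values was not tested.

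Of the receptor tyrosine kinases, Csf1r (ENSMUSG00000024621.15, chromosome 18, 61105572 to 61131139), the M-CSF receptor of monocytes and macrophages, rose most. It had 26.9, 25.04 and 25.5 CPM in H9M KO + ATRA, against 0.587, 0.693 and 0.837 CPM in H9M CTL + ATRA. It had 45.6, 47.8 and 45.6 CPM in H9M KO W/O ATRA, against 1.20, 1.10 and 1.33 CPM in H9M CTL W/O ATRA. The gap between these groups far exceeded their spread, with log2 fold changes of 5.20 (SE 0.12, 36.7-fold, adjusted p = 1.1e-25) with ATRA and 5.27 (SE 0.10, 38.6-fold, adjusted p = 6.91e-28) without it. In MN1 it stayed below 0.5 CPM, with 6, 12 and 13 counts in KO + ATRA against 5, 6 and 6 in CTL + ATRA. Without ATRA it had 11, 11 and 12 counts in MN1 KO against 5, 2 and 5 in MN1 CTL. Here the rise passed without ATRA (log2 fold change 1.65, SE 0.37, adjusted p = 0.000525) and did not pass with it (0.88, SE 0.35, adjusted p = 0.0611), though it did without MN1 KO + ATRA replicate 1 (1.10, adjusted p = 0.0258).

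Kit (ENSMUSG00000005672.12, chromosome 5, 75574987 to 75656722), the SCF receptor of progenitors and mast cells, fell in all 4 knockout comparisons. It had 148, 159 and 152 CPM in H9M KO + ATRA, against 262, 255 and 261 CPM in H9M CTL + ATRA. It had 136, 133 and 130.4 CPM in H9M KO W/O ATRA, against 263, 270.2 and 271 CPM in H9M CTL W/O ATRA. Kit fell by 0.76 (SE 0.03, adjusted p = 1.27e-18) on the log2 scale with ATRA and by 1.00 (SE 0.03, adjusted p = 1.44e-21) without it. In MN1 it had 283, 294 and 292 CPM in KO + ATRA, against 336, 335 and 334 CPM in CTL + ATRA. It had 267, 261 and 269 CPM in MN1 KO W/O ATRA, against 337, 348 and 342 CPM in MN1 CTL W/O ATRA. These libraries did not overlap, and Kit fell by 0.23 (SE 0.03, adjusted p = 1.64e-07) with ATRA and by 0.37 (SE 0.03, adjusted p = 1.98e-11) without it.

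Flt3 (ENSMUSG00000042817.15, chromosome 5, 147330741 to 147400489), the receptor of early progenitors that is often mutated in human AML, barely moved with LSD1 loss. In MN1 the log2 fold change was 0.00 with ATRA (95% interval -0.07 to 0.08, adjusted p = 0.947) and -0.06 without it (-0.13 to 0.02, adjusted p = 0.18). In H9M Flt3 fell by 0.12 (adjusted p = 0.0251) with ATRA and by 0.13 (adjusted p = 0.0284) without it. The first call ended without H9M CTL + ATRA replicate 1 (-0.08, adjusted p = 0.169), H9M KO + ATRA replicate 1 (-0.10, adjusted p = 0.103) or H9M KO + ATRA replicate 3 (-0.11, adjusted p = 0.0725). That call also ended with no filter on low counts (-0.12, adjusted p = 0.0641) and with only the H9M libraries in the fit (-0.12, adjusted p = 0.0785). The second ended with DESeq2 (-0.11, adjusted p = 0.0985) and without replicate 1 of H9M CTL W/O ATRA (-0.09, adjusted p = 0.178), among other settings.

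**Figure D3:**
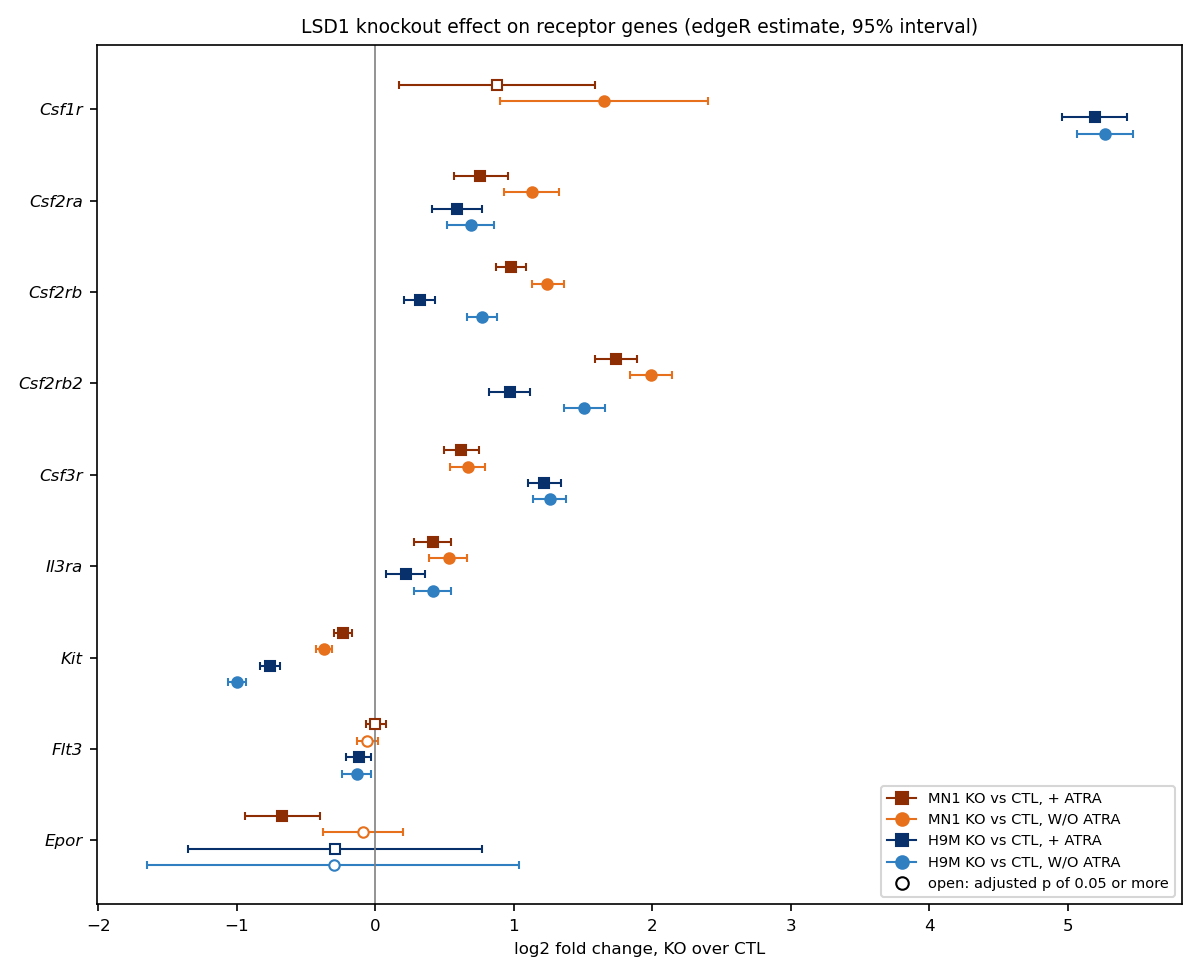
Log2 fold change of KO over CTL (linear axis, edgeR estimate with its 95% interval) for the 9 tested receptor genes in MN1 and H9M, with ATRA (squares) and without (circles), where open symbols have an adjusted p of 0.05 or more. Csf1r in H9M lies beyond 5, Csf2rb2 between 0.97 and 1.99, and Kit is below 0 in all 4 comparisons.

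The knockout effect differed between the models for 6 of the 9 genes, where 28.4% of all tested genes differed. The difference, MN1 minus H9M without ATRA, was -3.62 for Csf1r (SE 0.52, adjusted p = 1.91e-06) and -0.59 for Csf3r (SE 0.08, adjusted p = 1.17e-06), both of which rose less in MN1. It was 0.47 for Csf2rb (SE 0.08, adjusted p = 1.17e-05), 0.48 for Csf2rb2 (SE 0.10, adjusted p = 0.000511) and 0.44 for Csf2ra (SE 0.13, adjusted p = 0.0107), which rose more in MN1. The Csf2ra call ended without MN1 KO W/O ATRA replicate 1 (0.34, adjusted p = 0.0538). For Kit it was 0.63 (SE 0.04, adjusted p = 1.85e-12), a smaller fall in MN1.

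Markers of maturing myeloid cells moved with the knockout in both models. The 8 monocyte and macrophage markers, among them Cd14, Cd68 and Mpeg1, summed to 530.2 to 542 CPM in MN1 KO + ATRA and 417 to 436 CPM in MN1 KO W/O ATRA, against 95.8 to 123 CPM in MN1 CTL + ATRA and 61.7 to 67.8 CPM in MN1 CTL W/O ATRA. In H9M they summed to 2298 to 2385 CPM in KO + ATRA and 3104 to 3208 CPM in KO W/O ATRA, against 642 to 663 CPM in CTL + ATRA and 1209 to 1252 CPM in CTL W/O ATRA, with Mrc1 at 0 in CTL + ATRA. Of these 8 markers, 7 rose in KO W/O ATRA in each model. The 8 neutrophil markers, with Ltf, Camp and S100a8, summed to 266 to 298 CPM in MN1 KO + ATRA and 439 to 478 CPM in MN1 KO W/O ATRA, against 10.4 to 11.8 and 14.8 to 16.4 CPM in MN1 CTL with and without ATRA. In H9M they summed to 782 to 831 CPM in KO + ATRA and 1506 to 1797 CPM in KO W/O ATRA, against 18.1 to 22.4 and 23.4 to 24.9 CPM in CTL with and without ATRA. Ltf was at 0 in both H9M CTL groups, Camp, Ngp and S100a9 were at 0 in H9M CTL + ATRA, and Ngp was at 0 in H9M KO + ATRA. Of these 8, 6 rose in KO W/O ATRA in each model, and the part of either marker group in the receptor changes was not tested. The 6 mast cell and basophil markers summed to 1397 to 1512 CPM in MN1 KO + ATRA against 837 to 903 CPM in MN1 CTL + ATRA, and to 1957 to 1996 CPM in MN1 KO W/O ATRA against 1046 to 1115 CPM in MN1 CTL W/O ATRA. Of them 4 rose with ATRA and 5 without it, while Kit fell. In H9M they summed to 8.34 to 8.50 CPM in KO + ATRA and 9.60 to 10.1 CPM in KO W/O ATRA, against 16.4 to 18.6 CPM in CTL + ATRA and 17.3 to 18.6 CPM in CTL W/O ATRA. Of the 5 tested in H9M, 1 rose and 1 fell both with and without ATRA, with a median log2 fold change of 0.00 in each. Over all tested genes 26.7% rose and 24.4% fell with ATRA in H9M, and 26.1% and 25.4% without it. In MN1 28.6% rose with ATRA and 28.7% without it. The part of these markers in the Kit values was not tested.

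The other genes of receptor signalling were described by lists. Of 18 related receptors, 14 were tested, and without ATRA 9 rose and 2 fell in MN1 KO, while 11 rose in H9M KO. Over all tested genes 28.7% rose and 26.3% fell in MN1 KO, and 26.1% rose and 25.4% fell in H9M KO, which is the background of this list and of the following ones. The median log2 fold change of the related receptors was 0.60 in MN1 and 1.29 in H9M. In MN1 the named genes were Ifngr2 (1.66, adjusted p = 8.99e-23) of the interferon gamma receptor, Il2rg (1.44, adjusted p = 5.44e-18), the common gamma chain, and Il10ra (2.63, adjusted p = 8.44e-18), the IL-10 receptor. Il7r, the IL-7 receptor of lymphoid precursors, fell by 1.77 (adjusted p = 0.000378), with 0.313 ± 0.184 CPM in MN1 KO W/O ATRA and 1.08 ± 0.321 CPM in MN1 CTL W/O ATRA (SD, n = 3 each). In H9M they were Il6st (4.06, adjusted p = 2.18e-30) and Il6ra (1.79, adjusted p = 1.43e-22), the chains of the IL-6 receptor, whose ligand was in the medium, and Il10ra (2.86, adjusted p = 2.58e-21). Il6st averaged 126 ± 4.47 CPM in H9M KO W/O ATRA and 7.63 ± 0.107 CPM in H9M CTL W/O ATRA (SD, n = 3 each).

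Of 9 ligand genes, 3 passed the count filter. Csf1, which encodes M-CSF, rose in KO W/O ATRA by 0.47 in MN1 (adjusted p = 3.09e-05) and by 0.98 in H9M (adjusted p = 1.17e-12). It averaged 23.4 ± 0.889 CPM in H9M KO W/O ATRA and 11.97 ± 1.19 CPM in H9M CTL W/O ATRA. Il3 and Epo had no count in any library.

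All 26 JAK, STAT and kinase signalling genes were tested. Without ATRA 16 rose and 5 fell in MN1 KO (median 0.17), and 14 rose and 5 fell in H9M KO (median 0.21). The 5 that fell are a smaller share of the 26 than over all tested genes in each model. Pim2, a survival kinase transcribed downstream of STAT5, rose by 1.02 in MN1 (adjusted p = 1.77e-12) and by 1.94 in H9M (adjusted p = 2.71e-19). Jak2, the kinase bound by the beta chains and by Epor, rose by 0.89 in MN1 (adjusted p = 2.2e-13). Ptpn11, the phosphatase SHP2, fell by 0.40 in MN1 (adjusted p = 1.56e-12) and by 0.41 in H9M (adjusted p = 1.28e-12). Stat5a fell by 0.42 in H9M (adjusted p = 1.86e-09).

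Of 17 feedback inhibitors and receptor degradation genes, all were tested, and 9 rose and 5 fell without ATRA in each model, with medians of 0.22 in MN1 and 0.24 in H9M. Over all tested genes 28.7% rose and 26.3% fell in MN1 KO, and 26.1% and 25.4% in H9M KO. The 5 that fell are thus near the background. Cish, a SOCS-family inhibitor of STAT5 signalling, rose by 1.32 in MN1 (adjusted p = 9.58e-18) and by 0.66 in H9M (adjusted p = 3.63e-12). Socs2 rose by 0.60 in MN1 (adjusted p = 1.67e-12) and by 2.13 in H9M (adjusted p = 8.5e-25). It averaged 156 ± 10.4 CPM in H9M KO W/O ATRA and 36.0 ± 0.332 CPM in H9M CTL W/O ATRA (SD, n = 3 each). Socs1 rose by 1.89 in MN1 (adjusted p = 3.28e-16), and Dusp6, a phosphatase of the ERK pathway, fell by 0.66 in H9M (adjusted p = 9.21e-10).

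ATRA alone moved fewer receptors than the knockout, and most of its changes were smaller. It also moved fewer of all tested genes. ATRA called 3199 in MN1 CTL and 3695 in H9M CTL, where the knockout W/O ATRA called 8071 in MN1 and 7557 in H9M. In MN1 CTL cells, 1 of 9 receptors rose where 11.4% of tested genes did, and 1 fell where 10.4% did. Both counts are near the background. In H9M CTL cells, 3 rose (12.9% of tested genes) and 2 fell (12.3%). In MN1 KO cells ATRA called 2 lower (10.4%) and 0 higher (8.42%) with edgeR. Before adjustment, the edgeR p was 0.0143 for Kit and 0.0199 for Flt3, both higher, and 0.0232 for Csf2rb2, which was lower. The share of all tested genes at an unadjusted p under 0.05 was not counted. With DESeq2 Kit and Flt3 passed, and Csf2rb2 did not (adjusted p = 0.333). In H9M KO cells 2 rose (13.9%) and 5 fell (15.4%).

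Flt3 was the member that ATRA raised most in H9M. It had 39.6, 42.3 and 40.2 CPM in H9M KO + ATRA, against 21.0, 22.2 and 23.5 CPM in H9M KO W/O ATRA. It had 46.6, 42.6 and 43.6 CPM in H9M CTL + ATRA, against 26.2, 23.3 and 24.7 CPM in H9M CTL W/O ATRA. All 6 libraries with ATRA were above all 6 without it, with log2 fold changes of 0.89 (SE 0.05, adjusted p = 2.05e-15) in KO and 0.88 (SE 0.05, adjusted p = 2.33e-15) in CTL. In MN1 it had 361, 353 and 361 CPM in KO + ATRA, against 326, 319 and 336 CPM in KO W/O ATRA. It had 351, 347 and 357 CPM in MN1 CTL + ATRA, against 341, 338 and 340.3 CPM in MN1 CTL W/O ATRA. Neither change passed in MN1 in the edgeR fit reported (0.09, adjusted p = 0.0859 in KO, and 0.03, adjusted p = 0.656 in CTL). The change in MN1 KO passed in edgeR with RLE size factors (0.11, adjusted p = 0.0367) and with only the MN1 libraries (0.10, adjusted p = 0.0317). It also passed with DESeq2 (0.11, adjusted p = 0.00676). The ATRA effect in CTL differed between the models by -0.85 (MN1 minus H9M, SE 0.06, adjusted p = 5.73e-12). The 6 dendritic markers summed to 35.7 to 38.2 CPM in H9M KO + ATRA against 27.9 to 30.3 CPM in H9M KO W/O ATRA, and to 61.03 to 67.0 CPM in H9M CTL + ATRA against 36.5 to 38.4 CPM in H9M CTL W/O ATRA. In MN1 they summed to 58.1 to 60.8 CPM in KO + ATRA against 44.6 to 51.9 CPM in KO W/O ATRA, and to 89.9 to 96.1 CPM in CTL + ATRA against 57.1 to 61.6 CPM in CTL W/O ATRA. Of the 6 dendritic markers 3 were tested. In each of the 4 comparisons 1 of these rose, the MHC class II gene H2-Ab1 (named after its values were seen), and 0 fell. Over all tested genes 13.9% rose and 15.4% fell in H9M KO, and 12.9% and 12.3% in H9M CTL. In MN1 KO 8.42% rose and 10.4% fell, and in MN1 CTL 11.4% and 10.4%. The median log2 fold change of the 3 was -0.80 in H9M KO, 0.82 in H9M CTL, 0.43 in MN1 KO and 0.91 in MN1 CTL. The part of the dendritic markers in the Flt3 values was not tested.

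Csf3r fell with ATRA in each of the 4 comparisons, by 0.32 in MN1 KO (adjusted p = 0.000146), 0.28 in MN1 CTL (adjusted p = 0.0015), 0.32 in H9M KO (adjusted p = 3.54e-05) and 0.28 in H9M CTL (adjusted p = 0.000892). The summed neutrophil markers given above were also lower in every library with ATRA than in any without it in these 4 comparisons. Of the 8, 7 were tested. In MN1 KO 5 fell and 1 rose, and in MN1 CTL 3 fell and 0 rose. In H9M KO 4 fell and 1 rose, and in H9M CTL 3 fell and 1 rose. Over all tested genes 10.4%, 10.4%, 15.4% and 12.3% fell in these comparisons, in this order. The shares that rose were 8.42%, 11.4%, 13.9% and 12.9%. The part of these markers in the Csf3r fall was not tested. Csf1r fell with ATRA in H9M, by 0.82 in KO (SE 0.06, adjusted p = 3.98e-12) and by 0.75 in CTL (SE 0.21, adjusted p = 0.0122). The call in CTL ended without H9M CTL + ATRA replicate 1 (-0.62, adjusted p = 0.0878) or H9M CTL W/O ATRA replicate 3 (-0.67, adjusted p = 0.0558). The summed monocyte and macrophage markers given above were also lower in H9M + ATRA than in H9M W/O ATRA libraries of the same LSD1 state. Of these markers 7 were tested. In H9M KO 5 fell and 1 rose, where 15.4% and 13.9% of all tested genes did. In H9M CTL 3 fell and 1 rose, where 12.3% and 12.9% did. The part of these markers in the Csf1r fall was not tested. Epor rose with ATRA in MN1 CTL by 0.58 (SE 0.13, adjusted p = 0.00147). Of the 5 erythroid markers 3 were tested here. Of these 1 rose and 0 fell, with a median log2 fold change of 0.13, where 11.4% and 10.4% of all tested genes did. The 5 markers summed to 11.9 to 14.6 CPM with ATRA against 8.30 to 9.47 CPM without it. The part of these markers in the Epor rise was not tested.

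Csf2rb fell with ATRA in H9M KO by 0.49 (adjusted p = 1.58e-08) and in MN1 KO by 0.18 (adjusted p = 0.0137), and did not pass in CTL cells. The MN1 KO call ended without replicate 1 of MN1 KO + ATRA (-0.17, adjusted p = 0.055) or of MN1 KO W/O ATRA (-0.17, adjusted p = 0.057). Csf2rb2 rose with ATRA in H9M CTL by 0.33 (adjusted p = 0.00153) and fell in H9M KO by 0.21 (adjusted p = 0.0228). The fall ended with DESeq2 (adjusted p = 0.0857) and without H9M KO + ATRA replicate 1 (-0.19, adjusted p = 0.079), H9M KO + ATRA replicate 3 (-0.20, adjusted p = 0.0732) or H9M KO W/O ATRA replicate 2 (-0.15, adjusted p = 0.16). In H9M KO, Csf2ra fell by 0.30 (adjusted p = 0.00514) and Kit rose by 0.22 (adjusted p = 2.65e-06). Kdm1a RNA was also higher in H9M KO + ATRA than in H9M KO W/O ATRA (log2 fold change 3.54, adjusted p = 1.6e-22). Its part in the changes with ATRA in H9M KO was not tested. Il3ra rose by 0.19 in H9M CTL (adjusted p = 0.0402), a call lost on leaving out replicate 2 or 3 of H9M CTL + ATRA (0.16, adjusted p = 0.131, and 0.18, adjusted p = 0.0917) or replicate 1 or 3 of H9M CTL W/O ATRA (0.16, adjusted p = 0.141, and 0.16, adjusted p = 0.149).

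**Figure D4:**
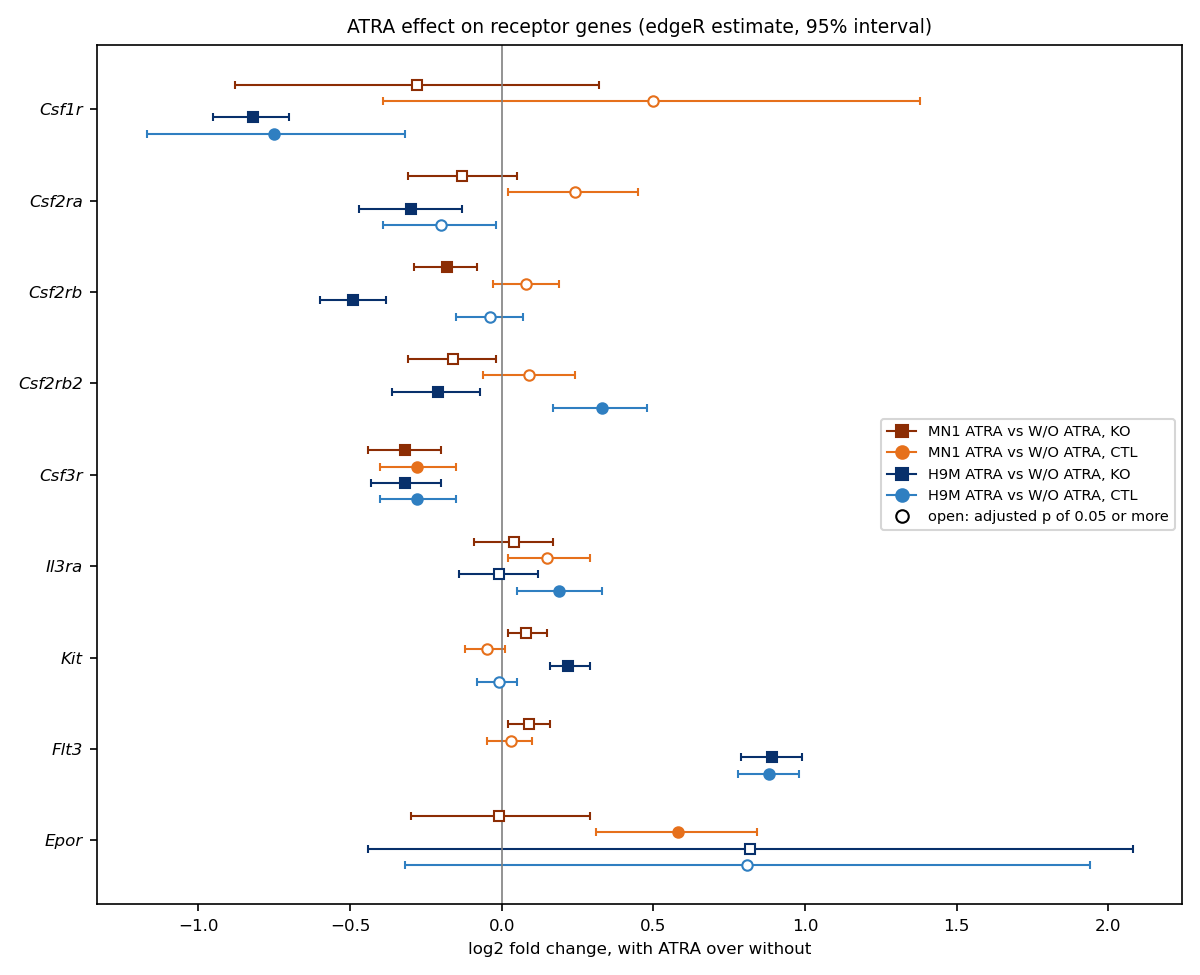
Log2 fold change with ATRA over without (linear axis, edgeR estimate with its 95% interval) for the 9 tested receptor genes in KO (squares) and CTL cells (circles) of both models, where open symbols have an adjusted p of 0.05 or more. Flt3 in H9M lies near 0.9, Csf3r is at -0.28 to -0.32 in all 4 comparisons, and Epor in H9M has the widest intervals.

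Among the pathway lists, ATRA in CTL cells raised 4 and lowered 2 of the 14 tested receptor relatives in MN1, and raised 6 and lowered 1 in H9M. Ifngr1 of the interferon gamma receptor rose in both, by 0.63 in MN1 (adjusted p = 3.63e-15) and 0.57 in H9M (adjusted p = 2.83e-15), and Flt1, a VEGF receptor, fell by 0.51 in MN1 (adjusted p = 7.29e-11) and 0.49 in H9M (adjusted p = 1.84e-09). Of the 26 signalling genes, 12 rose and 3 fell in MN1, and 12 rose and 2 fell in H9M. Of the 17 feedback genes, 6 rose and 6 fell in MN1, and 10 rose and 2 fell in H9M. Over all tested genes 11.4% rose and 10.4% fell with ATRA in MN1 CTL, and 12.9% rose and 12.3% fell in H9M CTL. The falls among receptor relatives and among signalling genes in both models are near or below this background. So are the 2 feedback genes that fell in H9M. Il5, the ligand of Il5ra, rose in MN1 by 2.28 (adjusted p = 0.000103), with 1.29 ± 0.59 CPM in MN1 CTL + ATRA and 0.26 ± 0.0342 CPM in MN1 CTL W/O ATRA (SD, n = 3 each).

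Whether ATRA changed the knockout effect was tested as an interaction, the knockout effect with ATRA minus that without it. In H9M it passed for 3 of 9 genes, where 5.04% of all tested genes passed. The knockout effect was smaller with ATRA for Csf2rb (-0.45, SE 0.08, adjusted p = 0.000154) and Csf2rb2 (-0.54, SE 0.10, adjusted p = 0.000879), and the fall of Kit was smaller (0.24, SE 0.05, adjusted p = 0.000879). The H9M KO + ATRA libraries kept 10.3 to 11.5 CPM of Kdm1a against 0.937 to 0.998 CPM in H9M KO W/O ATRA, and the part of this in the 3 interactions was not tested. In MN1 it passed for 0 of 9 genes with edgeR, where 2.78% of tested genes passed. At an unadjusted p under 0.05 the count was 5. The share of all tested genes at that threshold was not counted, and the 2.78% does not apply to it. DESeq2 called 1, Kit (0.15, adjusted p = 0.00718). Csf2rb had -0.26 (SE 0.08, adjusted p = 0.0574), and it passed without MN1 CTL + ATRA replicate 3 (-0.33, adjusted p = 0.00665).

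Between the models, MN1 CTL W/O ATRA cells were compared with H9M CTL W/O ATRA cells. Of the 9 genes 3 were higher in MN1 (37.6% of tested genes were) and 5 lower (35.9%). Flt3 had 341, 338 and 340.3 CPM in MN1 CTL W/O ATRA against 26.2, 23.3 and 24.7 CPM in H9M CTL W/O ATRA, 12.9-fold (log2 fold change 3.69, SE 0.04, adjusted p = 2.75e-33). Epor was 31.3-fold higher (4.97, SE 0.28, adjusted p = 3.18e-16) from 132 to 167 counts in MN1 and 2 to 6 counts in H9M libraries. The 5 erythroid markers summed to 8.30 to 9.47 CPM in MN1 CTL W/O ATRA against 1.35 to 1.73 CPM in H9M CTL W/O ATRA. Of them 2 were higher and 1, Klf1 (-1.01, adjusted p = 0.00133), was lower in MN1, and their part in the difference was not tested. Kit was higher by 0.26 (adjusted p = 8.21e-09). Csf1r (-3.19, adjusted p = 2.21e-11), Csf2ra (-1.29, adjusted p = 3.96e-13), Csf2rb (-0.80, adjusted p = 3.72e-14) and Csf3r (-0.46, adjusted p = 5.74e-08) were lower in MN1. Il3ra was lower by 0.19 (adjusted p = 0.0148), a call lost with DESeq2 (adjusted p = 0.055) and without MN1 CTL W/O ATRA replicate 1 (-0.14, adjusted p = 0.0981) or H9M CTL W/O ATRA replicate 2 (-0.13, adjusted p = 0.132). Csf2rb2 did not pass (0.13, 95% interval -0.02 to 0.28, adjusted p = 0.121), but did with no filter on low counts (0.13, adjusted p = 0.011).

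Markers of other lineages also differed between the models. The 6 mast cell and basophil markers, with Cpa3, Mcpt8 and Ms4a2, summed to 837 to 1996 CPM in MN1 libraries and 8.34 to 18.6 CPM in H9M libraries, and Fcer1a, Tpsb2 and Mcpt4 were at 0 in every H9M group. The 4 megakaryocyte markers summed to 108 to 154 CPM in MN1 and 1.89 to 16.3 CPM in H9M libraries. The 6 dendritic markers summed to 44.6 to 96.1 CPM in MN1 and 27.9 to 67.0 CPM in H9M libraries, with Siglech and Cd209a at 0 in each group. The 4 markers each of B cells (up to 0.803 CPM in MN1 and 1.19 CPM in H9M), of T and NK cells (up to 14.3 and 14.8 CPM) and of stroma (up to 15.8 and 1.87 CPM) were low. Their part in the receptor differences was not tested. The ATRA effect in CTL differed between the models for 2 of 9 genes, where 13.8% of tested genes differed. Besides Flt3 this was Csf2ra (0.44, SE 0.14, adjusted p = 0.0313), a call lost on leaving out any of 5 libraries, among them MN1 CTL W/O ATRA replicate 1 (0.38, adjusted p = 0.0969). Csf2rb2 did not pass (-0.24), but did with no filter on low counts (-0.22, adjusted p = 0.00735) and without MN1 CTL + ATRA replicate 1 (-0.40, adjusted p = 0.000565).

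The order of the 8 groups by level differed from gene to gene. For Csf1r it ran from H9M KO W/O ATRA (46.3 ± 1.28 CPM) over H9M KO + ATRA, H9M CTL W/O ATRA and H9M CTL + ATRA to the 4 MN1 groups, of which MN1 KO W/O ATRA and MN1 KO + ATRA overlapped with each other, as did MN1 CTL + ATRA and MN1 CTL W/O ATRA. As a description, the genes whose log2 level ran most like each receptor over the 24 libraries, after centring each model on its own mean, were taken from 3062 candidates. The libraries share treatments, so these correlations say no more than that. For Csf1r they were Il6st and Plxnb2 (Pearson r = 0.985 each), and for Csf2rb2 they were Myadm (0.985), S100a6 and Icam1 (0.984 each). For Csf2rb they were Dmkn (0.981), Clec4d (0.978) and Fcgr2b (0.972), for Csf3r Nfil3 (0.978), Mmp8 (0.976) and Soat1 (0.973), and for Csf2ra Ccr10 (0.964). For Kit the nearest was Nefh (0.981), for Il3ra Galnt6 (0.945), and for Flt3 they were Pde11a (0.963), the retinoic acid receptor gene Rarb and Csn3 (0.947 each). Epor had no close neighbour, with Zfhx3 at 0.753. Its H9M libraries held only 0 to 8 counts each, and counting error in them limits how high this correlation can be.

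H3K4me2 at the receptor genes was compared between the GFI1-KD and the GFI1-WT library of lineage-negative marrow. With 1 library each there is no test, and intervals cover counting error only. Reads within 1 kb either side of the gene start were counted, and over all 16145 promoters with at least 20 reads in both libraries the ratio of GFI1-KD to GFI1-WT RPM (reads per 1000000 reads kept) had a median of 0.989, with 5th and 95th percentiles of 0.718 and 1.86. Csf1r and Csf2rb have no entry in the promoter table, so both of their gene ends were counted. Cell type makeup of the marrow was not measured, and fewer cells of a type and less mark per cell cannot be told apart.

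Of the cytokine receptors, Csf2rb2 had 219 reads (23.0 RPM) in GFI1-KD and 86 reads (9.61 RPM) in GFI1-WT, a ratio of 2.39 (95% interval 1.85 to 3.10). Csf3r had 364 reads (38.2 RPM) in GFI1-KD and 150 reads (16.8 RPM) in GFI1-WT, a ratio of 2.28 (1.88 to 2.77). Both ratios are above the 95th percentile of all promoters. At Csf2rb the lower gene end had a ratio of 1.35 (1.04 to 1.75) and the upper end 1.81 (0.916 to 3.73), and with 2 kb either side the lower end had 2.10. Csf2ra had 1.10 (0.868 to 1.40), Il3ra 0.896 (0.721 to 1.11) and Il5ra 2.02 (1.01 to 4.25), the last from 28 reads in GFI1-KD and 13 in GFI1-WT. Epor had 60 reads (6.29 RPM) in GFI1-KD and 155 reads (17.3 RPM) in GFI1-WT, a ratio of 0.363 (0.265 to 0.492), below the 5th percentile, and 0.607 with 2 kb either side.

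Among the receptor tyrosine kinases, Flt3 had 292 reads (30.6 RPM) in GFI1-KD and 126 reads (14.1 RPM) in GFI1-WT, a ratio of 2.17 (1.76 to 2.70). Csf1r had a ratio of 2.06 (1.51 to 2.85) at its lower end, from 132 reads in GFI1-KD and 60 in GFI1-WT, and 2.14 (1.11 to 4.35) at its upper end. Kit had 351 reads in GFI1-KD and 383 in GFI1-WT, a ratio of 0.860 (0.742 to 0.996). Over the 8 gene starts together there were 1639 reads in GFI1-KD and 1223 in GFI1-WT, a ratio of 1.26 (1.17 to 1.36). With at least 20 reads in both libraries, the ratio was above the 95th percentile at Csf2rb2, Csf3r, Flt3 and the lower end of Csf1r. In H9M KO W/O ATRA cells the RNA of Csf2rb2, Csf3r and Csf1r rose and that of Flt3 fell by 0.13. These are different cells and a different gene, so the values stand side by side only.

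**Figure D5:**
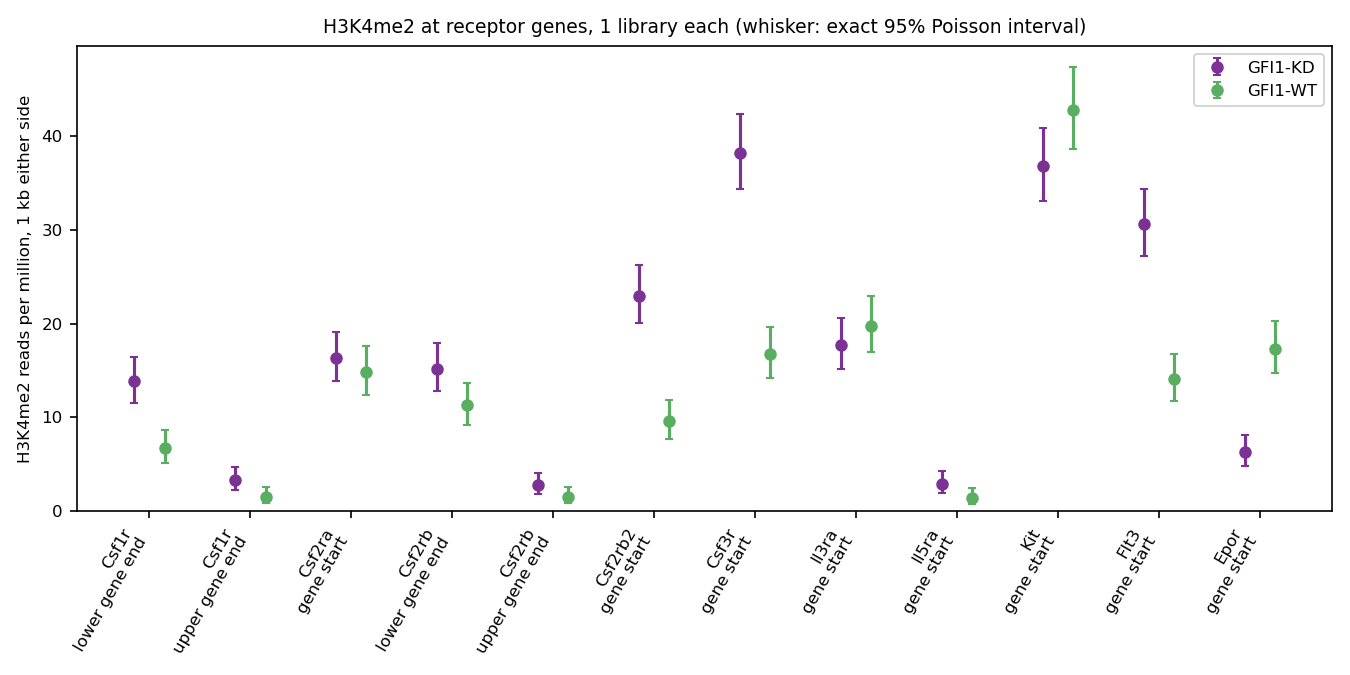
H3K4me2 in RPM within 1 kb either side of each site (linear axis from 0) in GFI1-KD and GFI1-WT, 1 library each, with whiskers of the exact 95% Poisson interval. The GFI1-KD point is above the GFI1-WT point at Csf2rb2, Csf3r, Flt3 and the lower gene end of Csf1r and below it at Epor, with intervals that do not meet.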

How the data were processed

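The deposited RNA table holds whole-number counts per gene and library; per the submitters' processing notes, STAR 2.5.3 was the aligner and mm10 the build. Libraries were stranded total RNA read as 100-base pairs, per the labels' protocols. The counter, the annotation and the strand setting were not given in the sources used here. Paralogs and antisense genes are therefore uncertain. Symbols were attached by Ensembl ID (48349 of 48795 matched). CPM are counts over the library total. In edgeR 4.0.16 (R 4.3.3), filterByExpr removed low genes and TMM scaled the libraries (factors 0.939 to 1.07). A single fit of 8 groups (16 residual degrees of freedom, biological coefficient of variation 4.01%) gave 13 quasi-likelihood comparisons, two-sided, with Benjamini-Hochberg adjustment over all 14663 genes tested and calls at an adjusted p under 0.05. Fold changes have their standard error (SE) from the same fit. The fit was tested on simulated data. DESeq2 1.42.0, other size factors, no filter, fits per model, a replicate block and leaving out each library were alternatives.

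Replicate libraries differed by 2.05 to 7.51 chi-square units per gene, so none is a copy.

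The deposited ChIP tables list 1 aligned read per line with a mapping-quality score. Reads had been processed with CASAVA 1.8.2, BWA and bedtools 2.27.0 on mm10, per the submitters' processing notes. Reads scoring at least 10 were kept, 9538627 of 9588899 in GFI1-KD and 8949072 of 9000433 in GFI1-WT. Intervals are exact (Poisson for levels, binomial for ratios, 95%) and cover counting error only.

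The 10 receptors, 4 pathway lists and 11 marker lists were chosen with earlier results of these data known. 1 marker gene that had been chosen is not reported here. The text names every receptor, Kdm1a as the check of the knockout, up to 3 genes per list and direction with the smallest adjusted p, and up to 3 genes per receptor with the nearest pattern. Promoter sequences come from RefSeq (GRCm38.p6).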

Additional observations from a re-analysis of the deposited data

Results flagged for a closer look

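The knockout effect without ATRA differed between the models, MN1 minus H9M, for 6 receptor genes in the test of the difference itself. The differences in log2 fold change were -3.62 for Csf1r, -0.59 for Csf3r, 0.44 for Csf2ra, 0.47 for Csf2rb, 0.48 for Csf2rb2 and 0.63 for Kit. The ATRA effect in CTL cells differed between the models by 0.44 for Csf2ra and by -0.85 for Flt3. Within H9M the knockout effect with ATRA differed from that without it by -0.45 for Csf2rb, -0.54 for Csf2rb2 and 0.24 for Kit. The library names of the models also differ by a code whose meaning no label gives, so model and code cannot be told apart.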

How the results depend on the processing

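Of 65 called values of receptor genes, 55 kept their call and direction under every alternative run, 10 lost the call under at least 1 and 0 changed direction. The counts of all genes called stayed within 1.5 times under every alternative, and scaling moved the median of all genes by at most 0.03. The number of receptors called for ATRA in MN1 KO cells was 2 in the fit reported and 4 with RLE size factors, with only the libraries of its model and with DESeq2. For the MN1 interaction it was 0, against 2 with no filter on low counts and 1 with DESeq2. Leaving out 1 library at a time gave 1 to 2 for ATRA in MN1 KO (1 without MN1 KO W/O ATRA replicate 1), 3 to 5 for ATRA in H9M CTL (3 without H9M CTL W/O ATRA replicate 3), 0 to 2 for the MN1 interaction (2 without MN1 CTL + ATRA replicate 3, 1 without replicate 2 of MN1 CTL + ATRA or of MN1 CTL W/O ATRA) and 1 to 2 for the difference in ATRA effect, where each of the 5 libraries that end the Csf2ra call except MN1 CTL + ATRA replicate 1 gave 1. The cause was not tested.

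In all, 18 values that were not called changed direction under some alternative. With RLE factors and with DESeq2, Kit had 0.00 for ATRA in H9M CTL, Epor 0.01 for ATRA in MN1 KO and Csf3r -0.01 for the difference in ATRA effect. In fits per model Epor had 0.00 for ATRA in MN1 KO and Il3ra 0.00 for ATRA in H9M KO. With no filter Flt3 had 0.00 for MN1 KO + ATRA. Leaving out 1 library at a time, the difference in ATRA effect ran over 0 to 0.18 for Csf2rb, -0.07 to 0.06 for Csf3r, -0.66 to 0.07 for Epor and -0.09 to 0.02 for Il3ra. ATRA in H9M CTL gave -0.02 to 0 for Kit, ATRA in H9M KO -0.1 to 0.05 for Il3ra, ATRA in MN1 KO -0.04 to 0.03 for Epor and 0 to 0.09 for Il3ra, and ATRA in MN1 CTL -0.03 to 0.15 for Csf2rb and -0.07 to 0.19 for Csf2rb2. The H9M interaction gave -0.2 to 0.06 for Csf1r, -0.11 to 0.02 for Csf3r, -0.48 to 0.5 for Epor and -0.03 to 0.06 for Flt3, and the MN1 interaction -0.1 to 0 for Csf3r. For the knockout, Epor gave -0.53 to 0.06 in H9M + ATRA, -0.79 to 0.19 in H9M W/O ATRA, -0.21 to 0.02 in MN1 W/O ATRA and -0.28 to 0.7 for the difference between models, and Flt3 -0.01 to 0.02 in MN1 + ATRA.

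The labels do not say that replicate numbers pair libraries. Deviations of same-numbered libraries correlated at -0.06 to 0.20 over 9 pairs of groups, and in 0 of them was every pair above 0.1. With a replicate block, the Epor interaction in H9M was -0.01, Csf2rb2 passed for MN1 against H9M (0.25, adjusted p = 0.00702) and Il3ra did not (-0.15, adjusted p = 0.082). No count of receptors called moved by over 1.5 times under the block. Further calls gained with no filter were Csf2rb2 for ATRA in MN1 KO (-0.16, adjusted p = 0.00101) and Csf2ra for ATRA in H9M CTL (-0.22, adjusted p = 0.0377), and Il3ra for ATRA in MN1 CTL passed without MN1 CTL W/O ATRA replicate 2 (0.21, adjusted p = 0.0428). With 2 kb either side, the H3K4me2 ratio was 2.10 at the lower end of Csf2rb and 0.607 at Epor. Few counts limit Csf1r in MN1, Epor in H9M and Il5ra, where a change below the intervals given was not detectable at this depth.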
